A study of Carica papaya with 15 samples.

Results

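Pulp of ethylene-treated papaya was compared at the end of the exposure (T12h) and after a further 12 h in air (T24h), which involved 6 of the 15 RNA-seq libraries of the series. These 6 were chosen by their labels alone, and every fold change gives T24h over T12h. Pre-climacteric fruit of the cultivar "Golden" were exposed to ethylene at 100 ppm for 12 h in a closed chamber and then air-vented, and were either frozen (T12h) or left to ripen until 24 h (T24h). Control fruit without ethylene were frozen at 0, 12 and 24 h (C0h, C12h and C24h). All fruit were sanitized with chlorine, peeled and freed of seeds. Each group held 3 libraries named A, B and C after 3 harvests, and each library was a pool of several fruit, so that the pool is the replicate and the spread between single fruit was not measured. Pulp holds several cell types, and in such a mixture fewer cells of a type and less RNA per cell cannot be told apart.

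Ethylene is a gaseous plant hormone that is made from S-adenosylmethionine by way of ACC. Its receptors repress the pathway until they bind the gas, after which transcription factors of the EIN3 family accumulate and switch on ethylene response genes. In climacteric fruit such as papaya a pulse of ethylene starts the fruit's own production of the gas, and softening, sugar, pigment and aroma changes follow. Gene roles below are those of the Arabidopsis genes whose symbols the papaya genes carry, unless another source is named.

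The values are normalized counts, that is, reads per gene divided by 1 size factor per library. The treated libraries held between 9760246 and 11393891 recovered reads, and the series between 7999275 and 12542678. T12h libraries lay close together on the second principal component (scores of 37.1 to 47.9), whereas T24h spread from -56.1 in B and -44.2 in C to -6.09 in A, and T24h A was the T24h library nearest to T12h in 445 of the 842 genes called below (52.9%). The control library C24h B lay among the treated libraries on the first component, with a score of 59.3 against -74.6 to -12.7 in the other 8 controls, and the comparison with the control range is given with and without it. Markers of tissues that could remain were read. LTPG1 of the peel and cuticle list (662 to 2168) and RAB18 of the seed list (385 to 1114) were above 0 in all 15 libraries. FDH of the peel and cuticle list (7417 to 11221) was so too, but its symbol is shared by unlike proteins and it is not read as a marker. Whether peel or seed tissue remained was not tested. The seed regulator ABI3 and the suberin gene CYP86A1 were at 0 in all 15 libraries. The summed peel and cuticle list, led by FDH, came to 21524 to 24727 normalized counts in T12h and 18219 to 24618 in T24h. With FDH in it, this sum is no reading of peel alone. The seed list came to 886 to 1188 and 894 to 1549.9, and the green tissue list to 3832 to 4682 and 4377 to 5483. The summed xylem and vascular list, led by the cellulose synthase IRX3 and by XYP1 while the secondary wall regulators MYB83 and NST1 were at 0 in all 15 libraries, stood at 11609 to 13909 in T12h, at 10687 and 10301 in T24h A and C, at 3967 in T24h B, at 2203 to 3631 in 8 controls and at 10596 in C24h B. XCP1 and REV of the xylem and vascular list were above 0 in all 15 libraries, at 4.06 to 112 and 99.96 to 630. The part of these library differences in the results was not tested.

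Between T12h and T24h the brassinosteroid receptor gene BRI1, the homeobox factors KNAT7 and BLH1, 3 auxin response factors and 4 genes of fatty acid synthesis rose, whereas the ABC transporter gene ABCG10, the gibberellin oxidase GA2OX8 and the enoyl-CoA isomerase ECI1 fell. Of 15270 genes tested, 842 (5.51%) passed an adjusted p of 0.05 with limma, of which 490 rose (3.21%) and 352 fell (2.31%). With a log2 fold change above 1.5 in size as well, 264 genes (1.73%) remained, 161 higher and 103 lower at T24h. The T12h and T24h values did not overlap in 837 of the 842 genes and in 4563 of all genes tested (29.9%). A lack of overlap in a called gene is thus nearly given by the call and is no further support. The symbols of the reference table covered 3658 of the genes tested, of which 141 rose and 91 fell. The gene lists below were not tested as sets, and their counts stand beside the 5.51% of all genes tested.

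Over the same 12 h, fruit without ethylene showed 0 genes past the threshold (0%) between C12h and C24h with limma. At an unadjusted p under 0.05 there were 549, and edgeR gave 0 and DESeq2 gave 3, whereas limma with library quality weights, whose estimation stopped short of its tolerance, gave 1019. The test of the difference between the treated and the control change also passed for 0 genes (0%), with 1938 at an unadjusted p under 0.05, 0 with edgeR, 178 with DESeq2 and 1097 with the weights. Without C24h B, the control library among the treated ones, 9 genes passed this test and still 0 changed between C12h and C24h, and without T12h A 3 genes passed it. The changes reported here are therefore changes within treated fruit, and whether any differs from the change in control fruit depended on the fit. Time out of the gas, time of day and the progress of ripening cannot be told apart between T12h and T24h.

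**Figure D1:**
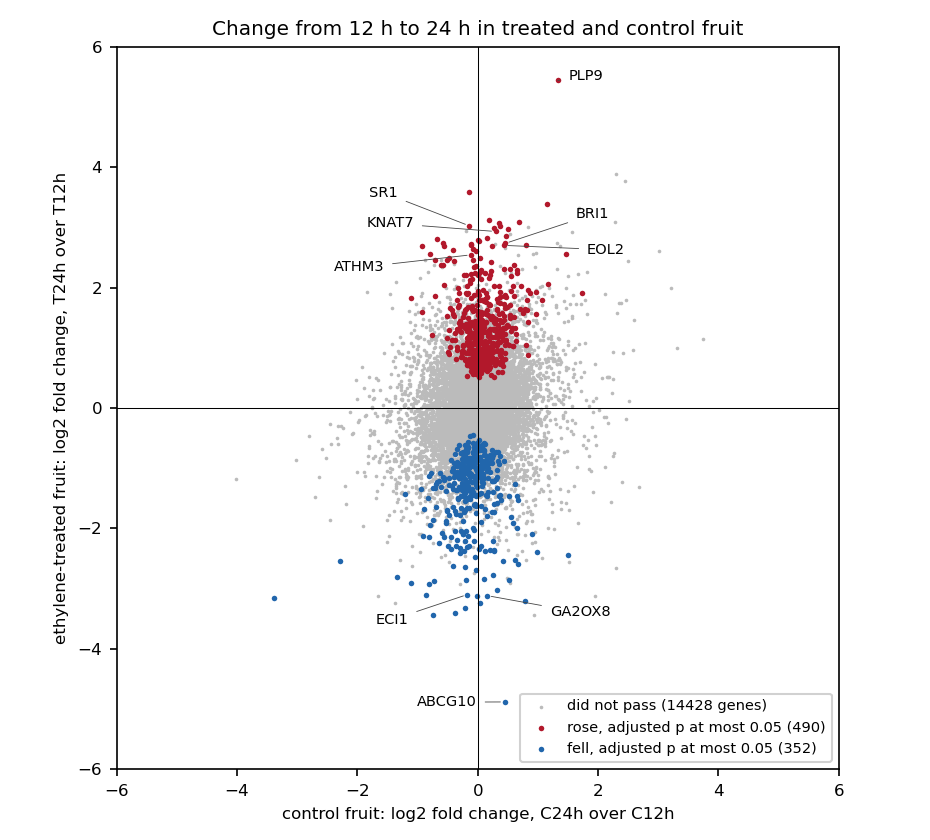
Log2 fold change from 12 h to 24 h in treated fruit (vertical axis, T24h over T12h) against that in control fruit (horizontal axis, C24h over C12h), 1 point per gene for the 15270 genes tested, with the 490 that rose in treated fruit in red and the 352 that fell in blue. PLP9 stands highest at 5.44 and ABCG10 lowest at -4.88 on the vertical axis, with control changes of 1.33 and 0.45.

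The count depended on single libraries. It was 514, 69 and 119 without T12h A, B and C and 1140, 36 and 574 without T24h A, B and C, of which 455, 68, 117, 657, 36 and 447 genes belonged to the 842. Without harvest A 327 genes passed, without harvest B 1 (BRI1), and without harvest C 0, with 2802 at an unadjusted p under 0.05. Of 86 genes named here as having passed, 10 also passed in each of the 6 fits that left out 1 treated library, namely BRI1, KNAT7, BLH1, ARR11, EOL2, ATHM3, RCAR3, ABCG10, LOC110821627 and LOC110825848, with an adjusted p from limma of at most 0.0465. The direction of the 86 was the same in every fit, of which the filter at a mean of 50 held 65 of them. Where T12h and T24h values do not overlap, leaving out libraries cannot reverse a direction, so that part is no further support. DESeq2 also called all 86 and edgeR all but 10.

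Of the ethylene pathway 1 gene passed. EOL2 (LOC110823612), of a family that targets the ACC synthases for degradation, held 41.2, 21.9 and 17.8 normalized counts in T12h A, B and C and 108, 175 and 261 in T24h (log2 change 2.70, SE 0.36, limma adjusted p = 0.00304). Every T24h library was above every T12h library, and all 3 T12h libraries lay below all 9 controls. EOL2 was the gene that rose among 11 tested in ethylene synthesis (9.09%, against 5.51% of all genes tested), where none fell. Its relatives ETO1 and EOL1 stood at log2 fold changes of -0.24 and 0.35 (adjusted p = 0.298 and 0.174 from limma). The S-adenosylmethionine synthetase SAM-2 held 219911, 192904 and 194090.0 in T12h and 350051, 232920.0 and 221492 in T24h, a log2 fold change of 0.38 (adjusted p = 0.621 from limma).

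Of 11 ethylene signalling genes tested 0 passed with limma, whereas 1 did so at an unadjusted p under 0.05, 0 with edgeR and 0 with DESeq2. EBF1, an F-box protein that removes EIN3, stood at 2054, 1126 and 1065 in T12h and 2473, 2761 and 2196 in T24h (log2 change 0.87, SE 0.33, limma adjusted p = 0.128). Its groups did not overlap, as in 29.9% of all genes tested. The receptor gene EIN4 was at 1300.2, 794 and 714 and 1325, 1473 and 2546 (log2 change 0.92, SE 0.45, limma adjusted p = 0.233). For the receptors ETR1 and ERS1, the kinase CTR1 and the signal transducer EIN2 the log2 fold changes were -0.28, -1.06, -0.01 and 0.00, with adjusted p of 0.575, 0.432, 0.989 and 0.992 from limma. ERS1 was split by library at T24h, with 11926, 1567 and 5813 in A, B and C against 10149, 11921 and 8069 in T12h.

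BRI1 (LOC110812897), the brassinosteroid receptor kinase, had the smallest p of all rising genes and held 159, 114 and 139.9 normalized counts in T12h A, B and C against 740.4, 1515 and 683 in T24h (log2 change 2.73, SE 0.29, limma adjusted p = 0.00166). ARR11 (LOC110811654), a type-B response regulator of cytokinin signalling, went from 11.1, 9.94 and 11.1 to 45.98, 149 and 60.0 (log2 change 2.69, SE 0.43, limma adjusted p = 0.00937). In both genes the T12h libraries lay below all 9 controls. At T24h BRI1 was in or above the range of the controls, and ARR11 was so in B and C and just below it in A. ATAUX2-11 (LOC110814111), an Aux/IAA repressor of auxin response, went from 14.5, 4.97 and 5.55 to 41.1, 75.5 and 60.0 (log2 change 2.78, SE 0.60, limma adjusted p = 0.0218), with T12h A highest in its group.

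The auxin response factor ARF4 (LOC110808551) held 122.6, 41.8 and 62.2 in T12h and 223, 390.4 and 215 in T24h (log2 change 1.94, SE 0.37, limma adjusted p = 0.0151). ARF10 went from 50.1, 73.6 and 63.3 to 122, 303 and 172 (log2 change 1.57, SE 0.38, limma adjusted p = 0.0319), and ARF17 from 104, 77.5 and 106 to 184, 206 and 167 (log2 change 0.96, SE 0.22, limma adjusted p = 0.0269). All 3 factors were below every control at T12h, and their groups did not overlap. They were the 3 genes that rose among 22 tested in the auxin list (13.6%, against 5.51% of all genes tested). That list does not hold ATAUX2-11. None of its genes fell, and its median log2 fold change was -0.04, against 0.00 over all genes tested. GA2OX8 (LOC110806753), an oxidase that inactivates gibberellin precursors, moved the other way, from 662, 464 and 435 to 82.3, 34.2 and 69.2 (log2 change -3.12, SE 0.61, limma adjusted p = 0.0163). Its T12h values were above all 9 controls and its T24h values were within their range. Of these 7 calls, 1, 5 and 5 were lost without T12h A, B and C in turn and 0, 5 and 1 without T24h A, B and C, at adjusted p of 0.0549 to 0.158 from limma.

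**Figure D2:**
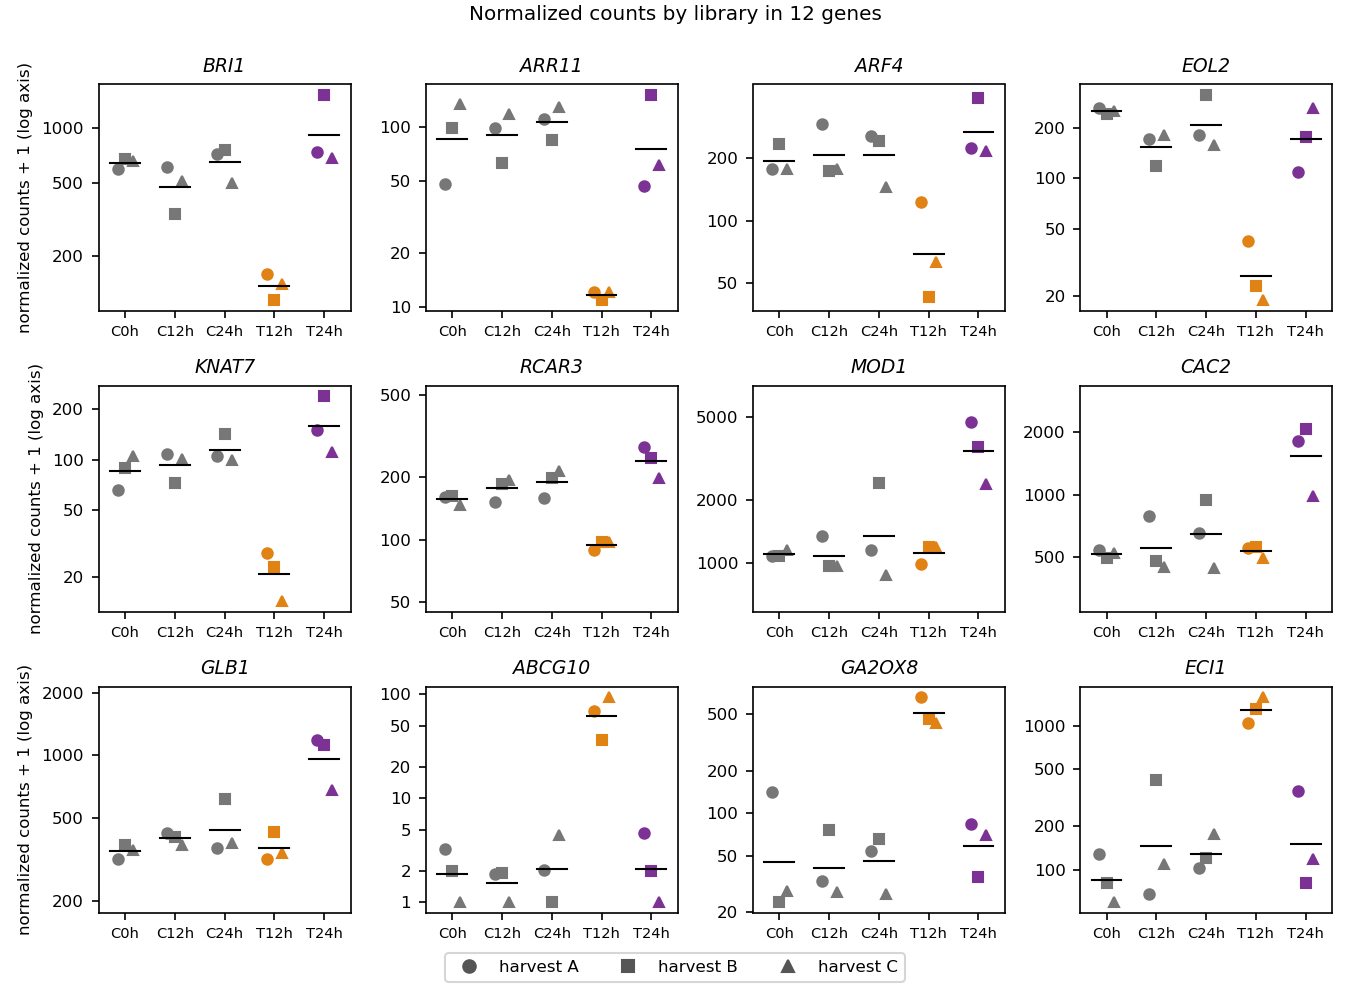
Normalized counts plus 1 (vertical log axis) of 12 genes in the 15 libraries by group, with circles, squares and triangles for harvests A, B and C and a line at the geometric mean of each group. BRI1, ARR11, ARF4, EOL2, KNAT7 and RCAR3 are lowest in T12h, where BRI1 holds 159, 114 and 139.9, whereas ABCG10, GA2OX8 and ECI1 are highest there, and MOD1, CAC2 and GLB1 have their highest group mean in T24h.

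Several genes of abscisic acid signalling passed. The receptor RCAR3 (LOC110823099) held 88.0, 96.4 and 96.6 normalized counts in T12h and 278, 245 and 197 in T24h (log2 change 1.34, SE 0.18, limma adjusted p = 0.00298), and PYL7, another receptor of the family, held 1451, 1221 and 909.6 and 2733, 2506 and 1670.2 (log2 change 0.94, SE 0.20, limma adjusted p = 0.0203). OST1 (LOC110813670), the kinase that acts once the receptors have bound the hormone, went from 286, 167 and 126 to 414, 948 and 562 (log2 change 1.73, SE 0.32, limma adjusted p = 0.014). PP2CA (LOC110819346), a phosphatase that holds the kinases inactive, fell from 1548, 2452 and 2546 to 642, 906 and 963 (log2 change -1.37, SE 0.26, limma adjusted p = 0.0149). No T12h value of these 4 genes reached into the T24h range. ERD15, a regulator of abscisic acid responses, rose from 523, 349.9 and 421 to 766, 1688 and 2134 (log2 change 1.72, SE 0.43, limma adjusted p = 0.0364). Of 25 genes tested RCAR3, PYL7, OST1 and ERD15 rose and PP2CA fell (20%, against 5.51% of all genes tested). The median log2 fold change of the list was 0.02.

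In the jasmonate list of 12 genes, OPR3 (LOC110817698), which makes the jasmonate precursor, fell from 540.4, 1009 and 769.7 to 266, 156 and 358 (log2 change -1.60, SE 0.35, limma adjusted p = 0.0222). The gene of the list that rose, PLP9, is a patatin-like protein and is described with the lipids (16.7% of the list called, against 5.51% of all genes tested). Leaving out T12h A, B or C ended 1, 5 and 5 of the 6 calls and leaving out T24h A, B or C ended 0, 5 and 1, with adjusted p of 0.0556 to 0.154 from limma.

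SR1 (LOC110806505), a symbol shared by unlike proteins and therefore given no role, held 8.91, 3.98 and 7.77 in T12h and 20.6, 98.6 and 108 in T24h (log2 change 3.03, SE 0.54, limma adjusted p = 0.0121), with T24h A nearest to T12h. SD2-5, an S-domain receptor kinase, rose from 7.80, 2.98 and 8.88 to 36.3, 61.4 and 24.2 (log2 change 2.47, SE 0.66, limma adjusted p = 0.0458), and GCL1, of a family of lanthionine synthetase-like proteins, from 25.6, 14.9 and 21.1 to 102, 152 and 83.0 (log2 change 2.38, SE 0.45, limma adjusted p = 0.0149). SR1, SD2-5 and GCL1 lay below all 9 controls at T12h. KIN3 (LOC110819023) rose from 295, 166 and 298 to 1272, 1706 and 606 (log2 change 2.16, SE 0.43, limma adjusted p = 0.0168), and each T24h value exceeded every control.

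PERK11 (LOC110813110), of the proline-rich extensin-like receptor kinases, went from 702, 1646 and 1279 to 284, 109.7 and 233 (log2 change -2.55, SE 0.43, limma adjusted p = 0.0101). ROPGEF3, an activator of plant ROP GTPases, went from 116, 147 and 111 to 26.6, 25.2 and 33.4 (log2 change -2.09, SE 0.39, limma adjusted p = 0.0145). In T12h both were above all 9 controls. The 6 calls dropped by 1, 6 and 3 when T12h A, B or C was left out and by 1, 6 and 1 when T24h A, B or C was (adjusted p = 0.0528 to 0.193 from limma). With the harvest as a block SD2-5 no longer passed (adjusted p = 0.0581 from limma).

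The homeobox factors KNAT7 and BLH1 rose, and the lists of other transcription factors held at most 1 call each outside the heat shock factors. KNAT7 (LOC110817587), a KNOX homeobox factor of secondary wall formation, held 26.7, 21.9 and 13.3 in T12h and 150.03, 239 and 111 in T24h (log2 change 2.93, SE 0.32, limma adjusted p = 0.00166). BLH1, a BELL homeobox factor, held 335, 202 and 219 and 924, 2238 and 1279 (log2 change 2.49, SE 0.33, limma adjusted p = 0.00298). Both were below every control at T12h. At T24h KNAT7 was in or above the control range, and BLH1 was below it in A, within it in C and above it in B. ICE1 (LOC110813027), a bHLH factor of the cold response, fell from 229.5, 188 and 193 to 116, 14.1 and 18.5 (log2 change -2.65, SE 0.68, limma adjusted p = 0.0386), with T24h A closest to T12h.

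Of 26 heat shock genes tested, 2 rose and 1 fell (11.5%, against 5.51% of all genes tested). All 3 encode heat shock transcription factors. HSFA6B was at 25.6, 12.9 and 10.00 in T12h and 26.6, 269.6 and 133 in T24h (log2 change 2.65, SE 0.66, limma adjusted p = 0.0363). T24h A exceeded T12h A by little, so the rise came from B and C. HSFA3 went from 41.2, 42.7 and 39.98 to 108, 149 and 102 (log2 change 1.49, SE 0.26, limma adjusted p = 0.0121), and HSF3 fell from 1666, 1758 and 1707 to 1289, 1006 and 767 (log2 change -0.78, SE 0.20, limma adjusted p = 0.0404). The median over the list was -0.16.

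WRKY21 rose from 284, 285 and 279.9 to 459, 454 and 356 (log2 change 0.57, SE 0.15, limma adjusted p = 0.0484). It was the 1 call among 17 WRKY genes tested (5.88%, against 5.51% of all genes tested). Of 11 NAC factors tested 0 passed with limma, whereas 3 did so at an unadjusted p under 0.05, 0 with edgeR and 1 with DESeq2. Of 10 MADS-box factors tested 0 passed with limma, whereas 3 did so at an unadjusted p under 0.05, 0 with edgeR and 0 with DESeq2. Of 6 AP2 and ERF factors tested 0 passed with limma, whereas 2 did so at an unadjusted p under 0.05, 0 with edgeR and 0 with DESeq2. Closest to the threshold in these families were the NAC gene SMB, with 358, 416 and 323 in T12h and 253, 197 and 232 in T24h (log2 fold change -0.68, adjusted p = 0.0672 from limma), and the MADS-box gene SEP2, with 621, 556 and 739.7 and 260.1, 433 and 383 (log2 fold change -0.85, adjusted p = 0.0946 from limma). NAP, a NAC factor of leaf senescence, stood at -0.72 (adjusted p = 0.165 from limma) and the MADS-box gene AGL33 at -0.97 (adjusted p = 0.14). In the AP2 and ERF list TOE3 stood at -1.06 and ERF-1 at 1.37, with adjusted p of 0.126 and 0.188 from limma. Of these 7 calls, 3, 5 and 4 were lost without T12h A, B and C in turn and 1, 5 and 3 without T24h A, B and C, at adjusted p of 0.0566 to 0.188 from limma. A harvest block in the limma fit took the adjusted p past the threshold for WRKY21 (0.0707), HSFA6B (0.0528), HSF3 (0.0535) and ICE1 (0.0522).

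Of 21 circadian clock genes tested, 2 rose and none fell (9.52%, against 5.51% of all genes tested). The median log2 fold change of the list was 0.41 in treated fruit and 0.17 in control fruit. FKF1, a blue-light receptor of the clock, went from 749, 800.3 and 913 to 1367, 1935 and 1761 (log2 change 1.03, SE 0.26, limma adjusted p = 0.0372). ELF4, a component of the evening complex, went from 2007, 2408 and 1946 to 4727, 4170.4 and 2979 (log2 change 0.88, SE 0.24, limma adjusted p = 0.0481). Over the same hours in control fruit, where no gene passed, the log2 fold change was 0.58 for FKF1 and 0.83 for ELF4. For ELF4 the control change had an unadjusted p of 0.00377 from limma. The treated change of ELF4 exceeded it by 0.05 (unadjusted p = 0.878 from limma). In control fruit 4 of the 21 clock genes had an unadjusted p under 0.05, against 549 of all 15270 genes tested. The pseudo-response regulators PRR5 and PRR7 stood at 1.34 and 1.19 in treated fruit (adjusted p = 0.0534 and 0.0698 from limma) and at 0.17 and 0.95 in control fruit. Leaving out T12h A, B or C ended 2, 2 and 2 of the 2 calls and leaving out T24h A, B or C ended 1, 2 and 1, with adjusted p of 0.0798 to 0.173 from limma. With the harvest as a block FKF1 no longer passed (adjusted p = 0.0576 from limma).

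Of 23 fatty acid synthesis genes 4 rose (17.4%, against 5.51% of all genes tested). Of these 4, 3 act in the steps from acetyl-CoA to the acyl chain. CAC2 and CAC3, the biotin carboxylase and a carboxyltransferase subunit of plastid acetyl-CoA carboxylase, held 553, 558 and 493 and 675, 616 and 576 normalized counts in T12h A, B and C. In T24h they held 1808, 2063 and 984 and 1858, 1932 and 1025 (log2 change 1.53, SE 0.30, limma adjusted p = 0.0165 for CAC2 and log2 change 1.31, SE 0.27, limma adjusted p = 0.0181 for CAC3). In both, T24h C was the lowest library of its group. MOD1 (LOC110807389), the enoyl reductase of the fatty acid synthase, went from 986, 1184 and 1184 to 4735, 3622 and 2385 (log2 change 1.63, SE 0.32, limma adjusted p = 0.0163). LACS9, a plastid long-chain acyl-CoA synthetase, went from 792, 618 and 933 to 4132, 4474 and 1692 (log2 change 2.03, SE 0.54, limma adjusted p = 0.0457).

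In all 4 genes the lowest T24h library, C, was above the highest T12h library. No gene of the list fell, and the median log2 fold change of the list was 0.56 in treated fruit and 0.33 in control fruit, against 0.00 and -0.01 over all genes tested. The control value includes C24h B, in which MOD1 stood at 2425, above the 1152 and 872 of C24h A and C. PLP9 (LOC110814795), a patatin-like lipid acyl hydrolase and the largest rise of all, held 275, 20.9 and 25.5 in T12h and 2703, 2824 and 1731 in T24h (log2 change 5.44, SE 1.11, limma adjusted p = 0.0181). T12h A stood apart from T12h B and C, and C24h B held 1867.

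Of 31 genes of fatty acid breakdown in peroxisomes 2 rose and 2 fell (12.9%, against 5.51% of all genes tested). MFP1, a symbol shared by a multifunctional protein of this pathway and a plastid filament protein, rose from 119, 151 and 151 to 376, 485 and 406 (log2 change 1.58, SE 0.31, limma adjusted p = 0.0163), and PEX11A, a peroxisome division protein, from 133, 107 and 121 to 174, 245 and 257 (log2 change 0.89, SE 0.18, limma adjusted p = 0.0188). ECI1 (LOC110824170), an enoyl-CoA isomerase used for unsaturated fatty acids, fell from 1035, 1304 and 1579 to 351, 79.5 and 119 (log2 change -3.10, SE 0.60, limma adjusted p = 0.0162), and SDP1, a triacylglycerol lipase, from 2209, 1845 and 1737 to 1065, 1026 and 890.5 (log2 change -0.95, SE 0.21, limma adjusted p = 0.0227). ECI1 and SDP1 were above every control at T12h, and neither was at T24h. The 9 calls dropped by 2, 9 and 9 when T12h A, B or C was left out and by 1, 9 and 2 when T24h A, B or C was (adjusted p = 0.051 to 0.189 from limma).

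**Figure D3:**
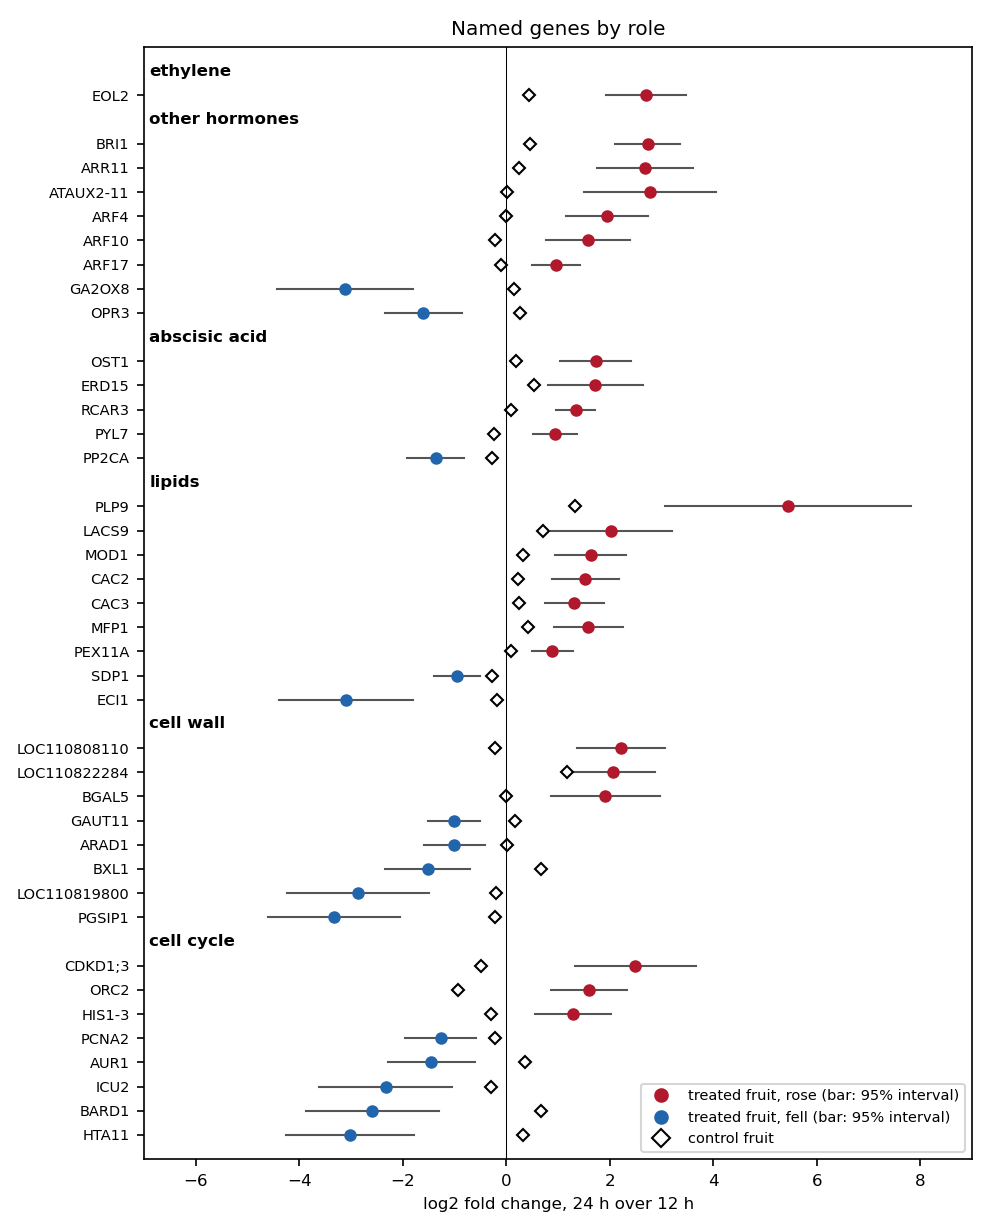
Log2 fold change from 12 h to 24 h (horizontal axis) of named genes grouped by role, with red and blue points for genes that rose and fell in treated fruit, bars for the 95% interval from limma and open diamonds for the change in control fruit. BRI1 stands at 2.73 in treated and 0.45 in control fruit, and the interval of PLP9 is the widest shown, from 3.06 to 7.83.

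GLB1 (LOC110811485), a plant hemoglobin of the low-oxygen response, went from 315, 424 and 337 to 1184, 1117 and 677 (log2 change 1.44, SE 0.24, limma adjusted p = 0.00976), and all 3 T24h values exceeded every control. It was the 1 call among 7 genes of the hypoxia list (14.3%, against 5.51% of all genes tested). In that list the alcohol dehydrogenase ADH1 stood at 134, 149 and 112 in T12h and 25.4, 39.2 and 81.9 in T24h (log2 fold change -1.57, adjusted p = 0.138 from limma). SWEET2 (LOC110818297), a sugar transporter of the vacuole membrane, fell from 30.1, 47.7 and 87.7 to 10.9, 13.1 and 5.77 (log2 change -2.30, SE 0.46, limma adjusted p = 0.0168). SS2, a starch synthase, fell from 57.9, 79.5 and 74.4 to 16.9, 24.1 and 36.9 (log2 change -1.46, SE 0.34, limma adjusted p = 0.0291). These were the 2 that fell among 45 sucrose and starch genes, where none rose (4.44%, against 5.51% over all genes tested).

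Of 22 genes of glycolysis and the tricarboxylic acid cycle tested 0 passed with limma, whereas 8 did so at an unadjusted p under 0.05, 0 with edgeR and 3 with DESeq2. The phosphofructokinase gene PFK2 came closest, with 1431, 913 and 926 in T12h and 668, 387 and 444 in T24h (log2 change -1.13, SE 0.32, limma adjusted p = 0.0542), followed by the PEP carboxylase PPC2 with 1272, 3435 and 1919 and 410.1, 732 and 989.7 (log2 change -1.60, SE 0.55, limma adjusted p = 0.0962). G3PP4, a putative glycerol-3-phosphate permease, fell from 49.0, 92.5 and 123.3 to 22.99, 11.1 and 16.1 (log2 change -2.29, SE 0.40, limma adjusted p = 0.012). PMI2 (LOC110807511), a symbol shared by a phosphomannose isomerase of vitamin C synthesis and a plastid movement protein, rose from 10.0, 6.96 and 1.11 to 42.3, 45.3 and 48.4 (log2 change 3.02, SE 0.49, limma adjusted p = 0.00937). It was the 1 call among 15 vitamin C and E genes (6.67%, against 5.51% of all genes tested). Of these 5 calls, 0, 3 and 3 were lost without T12h A, B and C in turn and 1, 5 and 0 without T24h A, B and C, at adjusted p of 0.0532 to 0.12 from limma.

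Of 17 carotenoid and isoprenoid genes tested 0 passed with limma, whereas 3 did so at an unadjusted p under 0.05, 0 with edgeR and 2 with DESeq2. HDR, the last enzyme of the plastid isoprenoid precursor pathway, held 6449.7, 6983 and 7399 in T12h and 14768, 11361 and 13288 in T24h (log2 change 0.91, SE 0.28, limma adjusted p = 0.0685). ZDS, a carotene desaturase, held 9679, 9539.7 and 11872 and 18366, 21345 and 14324 (log2 change 0.79, SE 0.26, limma adjusted p = 0.0896). In both genes every T24h library was above every T12h library, but neither passed. The groups did not overlap, in either direction, in 29.9% of all genes tested. The phytoene synthase gene PSY stood at 847, 927 and 549.8 and 626, 523 and 742, a log2 fold change of -0.28 (adjusted p = 0.5 from limma).

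Of 9 chlorophyll breakdown genes ACD2, the red chlorophyll catabolite reductase, fell from 221, 280.3 and 274 to 121, 124 and 160.3 (log2 change -0.94, SE 0.26, limma adjusted p = 0.0488). ACD2 was the 1 call of the list (11.1%, against 5.51% of all genes tested). The 3 T24h libraries lay together below T12h. LHCB3, a light-harvesting protein, rose from 10.0, 6.96 and 8.88 to 30.2, 31.2 and 21.9 (log2 change 1.58, SE 0.36, limma adjusted p = 0.0265). It was below every control at T12h and was the 1 call among 39 green tissue genes (2.56%, against 5.51% of all genes tested). ATHM3 (LOC110813826), a plastid thioredoxin, rose from 22.3, 24.9 and 22.2 to 134, 187 and 108 (log2 change 2.55, SE 0.30, limma adjusted p = 0.00166), and the peroxiredoxin PRXQ fell from 7.80, 17.9 and 10.00 to 1.21, 2.01 and 4.61 (log2 change -1.87, SE 0.46, limma adjusted p = 0.0358). Besides PRXQ the antioxidant list of 32 genes (6.25% called, against 5.51% of all genes tested) had 1 call, CAT8. In Arabidopsis CAT8 is a cationic amino acid transporter and no catalase. It rose from 57.9, 49.7 and 63.3 to 139, 273 and 112 (log2 change 1.498, SE 0.30, limma adjusted p = 0.0169). In the phenylpropanoid list of 22 genes the 1 call (4.55%, against 5.51% of all genes tested) was REF6, which is a histone demethylase. REF6 rose from 50.1, 37.8 and 35.5 to 64.1, 105 and 72.7 (log2 change 0.94, SE 0.26, limma adjusted p = 0.0485). Leaving out T12h A, B or C ended 2, 5 and 5 of the 6 calls and leaving out T24h A, B or C ended 2, 5 and 2, with adjusted p of 0.0549 to 0.216 from limma. A harvest block in the limma fit took the adjusted p past the threshold for REF6 (0.0714) and ACD2 (0.0531).

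Cell wall genes were compared because pulp softening is the feature of papaya ripening that the study addressed. Of 71 genes in the symbol list, 1 rose and 3 fell (5.63%, against 5.51% of all genes tested). BGAL5 (LOC110810818), a beta-galactosidase, rose from 115, 33.8 and 145 to 283, 446 and 249 (log2 change 1.92, SE 0.49, limma adjusted p = 0.0385). GAUT11, a galacturonosyltransferase of pectin synthesis, fell from 316, 472 and 367 to 158, 182 and 234 (log2 change -1.002, SE 0.23, limma adjusted p = 0.0288). BXL1, a beta-xylosidase and arabinofuranosidase, fell from 1029, 1539 and 596 to 246, 284 and 567 (log2 change -1.52, SE 0.38, limma adjusted p = 0.038), and ARAD1, an arabinosyltransferase of pectin, from 244, 208 and 234 to 148, 104 and 94.6 (log2 change -1.01, SE 0.28, limma adjusted p = 0.0493). In BXL1 T12h C lay close to T24h C, and the other libraries of the 2 groups stood apart. PGSIP1 (LOC110816105), which adds glucuronic acid to xylan, was outside the list and fell from 32.3, 21.9 and 43.3 to 1.21, 6.04 and 1.15 (log2 change -3.33, SE 0.60, limma adjusted p = 0.0122).

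In the study's own cell wall families 68 genes could be tested, of which 3 rose and 1 fell (5.88%). The study chose these families on the same samples, so the count is not independent evidence of a direction. Besides BGAL5 these were the cellulase genes LOC110822284, from 22.3, 25.8 and 32.2 to 85.9, 97.6 and 175 (log2 change 2.06, SE 0.38, limma adjusted p = 0.0137), and LOC110808110, from 5.57, 1.99 and 2.22 to 21.8, 15.1 and 16.1 (log2 change 2.21, SE 0.39, limma adjusted p = 0.0122), and the pectate lyase gene LOC110819800, from 8.91, 19.9 and 11.1 to 0, 2.01 and 1.15 (log2 change -2.86, SE 0.64, limma adjusted p = 0.0257). In control fruit LOC110822284 changed by 1.16 on the log2 scale between C12h and C24h (unadjusted p = 0.00872 and adjusted p = 0.86 from limma). LOC110819800 was at low counts in every library, and log2(value + 1) understates the change of such genes. Of the 7 xyloglucan endotransglucosylase genes tested 5 had positive and 2 negative log2 fold changes, from -0.80 to 3.01, and none passed. At an unadjusted p under 0.05 with limma there were 4, all of them higher at T24h. Of the 7 polygalacturonase genes tested 2 had positive and 5 negative log2 fold changes, from -1.91 to 1.76, and none passed. The 2 positive ones had an unadjusted p under 0.05 with limma and held at most 58.4 normalized counts in the treated libraries. The most abundant of the 7, LOC110826274, chosen after its values were seen, held 70910.4, 63518 and 81339.6 in T12h and 101366, 18300.3 and 47016 in T24h. In it T24h A was above all T12h libraries and T24h B and C were below them. The 8 calls dropped by 3, 7 and 6 when T12h A, B or C was left out and by 2, 7 and 2 when T24h A, B or C was (adjusted p = 0.0513 to 0.18 from limma). With the harvest as a block BXL1 no longer passed (adjusted p = 0.0528 from limma).

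Of 8 cell wall genes of the table that were also measured by real-time PCR, 0 passed with limma. The study's real-time PCR compared C0h with T12h and used a separate ripening curve, so it did not measure the change from T12h to T24h. The pectin methylesterase gene PMEPCRA held 53.5, 49.7 and 19.99 in T12h and 9.68, 8.05 and 20.8 in T24h (log2 fold change -1.60, adjusted p = 0.0985 from limma), PME1 held 396, 385 and 269.9 and 398, 746 and 765 (log2 fold change 0.82, adjusted p = 0.126) and PME31 held 146, 218 and 153 and 64.1, 201.2 and 266 (log2 fold change -0.16, adjusted p = 0.888). The alpha-galactosidase gene LOC110817097 stood at 397, 784 and 352 and 119.8, 142 and 405 (log2 fold change -1.33, adjusted p = 0.076 from limma), and the beta-galactosidase gene LOC110811182 at 45646, 51397 and 55619.9 and 48577, 13569.6 and 23369.9 (log2 fold change -1.03, adjusted p = 0.321). In LOC110811182 T24h A was as high as T12h, and B and C were lower. For the polygalacturonases LOC110813488 and LOC110809302 and the pectate lyase LOC110813995 the log2 fold changes were -1.91, -0.15 and -0.02, with adjusted p of 0.284, 0.954 and 0.991 from limma, and their groups overlapped. At an unadjusted p under 0.05 there were 3 of the 8, and edgeR called 0 and DESeq2 1.

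Of 40 cell cycle and chromatin genes 3 rose and 3 fell (15%, against 5.51% of all genes tested). In the list 29 of the 40 had a negative log2 fold change, against 7674 of all 15270 genes tested, and the median was -0.42. CDKD1;3 (LOC110823421), a kinase that activates cyclin-dependent kinases, rose from 7.80, 3.98 and 4.44 to 14.5, 63.4 and 41.5 (log2 change 2.49, SE 0.54, limma adjusted p = 0.023). ORC2, of the origin recognition complex, rose from 34.5, 17.9 and 15.5 to 59.3, 88.5 and 56.5 (log2 change 1.60, SE 0.34, limma adjusted p = 0.0217), and the stress-related linker histone HIS1-3 from 2473, 1846 and 1708 to 6243, 5762 and 3152 (log2 change 1.29, SE 0.34, limma adjusted p = 0.0449). In CDKD1;3 T24h A was nearest to T12h, and in HIS1-3 T24h C was. HTA11, a histone H2A.Z, fell from 16.7, 14.9 and 17.8 to 1.21, 0 and 3.46 (log2 change -3.02, SE 0.57, limma adjusted p = 0.0149). The sliding clamp PCNA2 fell from 96.9, 113 and 165 to 66.5, 45.3 and 41.5 (log2 change -1.27, SE 0.32, limma adjusted p = 0.0375), and the Aurora kinase AUR1 from 64.6, 78.5 and 68.9 to 47.2, 16.1 and 20.8 (log2 change -1.45, SE 0.39, limma adjusted p = 0.0481).

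Outside the list, ICU2, a catalytic subunit of DNA polymerase alpha, fell from 15.6, 12.9 and 24.4 to 9.68, 1.01 and 1.15 (log2 change -2.33, SE 0.60, limma adjusted p = 0.0395). BARD1, a RING protein of DNA repair, fell from 71.3, 139 and 248 to 35.1, 11.1 and 25.4 (log2 change -2.59, SE 0.60, limma adjusted p = 0.0283). The replicative helicase subunits MCM2, MCM3, MCM4, MCM5 and MCM6, chosen after their values were seen, had log2 fold changes of -1.67, -1.72, -2.33, -1.15 and -1.88 and did not pass (adjusted p = 0.0629 to 0.221 from limma). MCM4 stood at 47.9, 28.8 and 43.3 in T12h and 16.9, 4.02 and 4.61 in T24h. Of these 8 calls, 3, 8 and 8 were lost without T12h A, B and C in turn and 1, 8 and 4 without T24h A, B and C, at adjusted p of 0.0557 to 0.21 from limma. A harvest block in the limma fit took the adjusted p past the threshold for HIS1-3 (0.0631) and AUR1 (0.0566).

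Of 55 ABC transporter genes 3 fell and none rose, a share of 5.45% that is near the 5.51% of all genes tested. ABCG10 (LOC110808870), an ABC transporter of the G subfamily and the largest fall of all, held 68.0, 35.8 and 93.3 in T12h and 3.63, 1.01 and 0 in T24h (log2 change -4.88, SE 0.73, limma adjusted p = 0.00684). The 9 controls held at most 3.47, so that T12h stood apart from all other libraries. ABCC10 fell from 633, 1607 and 1243 to 263, 138 and 269 (log2 change -2.33, SE 0.40, limma adjusted p = 0.0106), to below every control, and ABCC13 from 45.7, 66.6 and 74.4 to 19.4, 33.2 and 33.4 (log2 change -1.10, SE 0.30, limma adjusted p = 0.0484). Over the list 37 of the 55 had a negative log2 fold change (median -0.17), against 7674 of all 15270 genes tested.

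Of 15 genes in the aquaporin list the 1 call (6.67%, against 5.51% of all genes tested) was PIP5K2, which is a phosphatidylinositol phosphate kinase and no aquaporin. PIP5K2 rose from 109, 68.6 and 54.4 to 116, 319 and 188 (log2 change 1.35, SE 0.36, limma adjusted p = 0.0468). Among 55 vesicle traffic genes 2 rose and 1 fell, also 5.45%. EXO70F1, of the exocyst family, rose from 432, 234 and 277 to 543, 563 and 535 (log2 change 0.85, SE 0.21, limma adjusted p = 0.0372), and VPS9A, an activator of endosomal Rab GTPases, from 84.7, 93.4 and 104 to 126, 201.2 and 202 (log2 change 0.87, SE 0.22, limma adjusted p = 0.0374). RABA5A, a small GTPase of the RabA clade, fell from 141, 196 and 205 to 105, 49.3 and 53.1 (log2 change -1.44, SE 0.31, limma adjusted p = 0.021). Leaving out T12h A, B or C ended 1, 6 and 5 of the 7 calls and leaving out T24h A, B or C ended 2, 6 and 5, with adjusted p of 0.0534 to 0.209 from limma. With the harvest as a block the calls of PIP5K2 (0.0686), VPS9A (0.0519) and EXO70F1 (0.054) were lost, with the adjusted p from limma in parentheses.

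Of 64 ubiquitin and proteasome genes 3 rose and none fell (4.69%, against 5.51% of all genes tested), namely the conjugating enzyme UBC22, from 724, 656 and 705 to 909, 1119 and 968 (log2 change 0.52, SE 0.13, limma adjusted p = 0.0416), the ligase UPL6, from 507, 379 and 498 to 719.9, 787 and 572 (log2 change 0.59, SE 0.16, limma adjusted p = 0.0494), and RPT2, a symbol shared by a proteasome ATPase and a phototropism protein, from 49.0, 25.8 and 25.5 to 75.0, 70.4 and 121 (log2 change 1.41, SE 0.39, limma adjusted p = 0.0494). The T12h and T24h values did not overlap in these 3, as in 837 of the 842 genes called. Of 26 ribosome and translation genes tested 0 passed with limma, whereas 2 did so at an unadjusted p under 0.05, 0 with edgeR and 1 with DESeq2. Their median log2 fold change was -0.25, with 21 of 26 negative, against 7674 of all 15270 genes tested. The initiation factor EIFISO4G1 stood at -0.39 (adjusted p = 0.186 from limma).

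In the senescence and autophagy list of 29 genes 1 rose and 2 fell (10.3%, against 5.51% of all genes tested). BFN1, a nuclease of senescence and cell death, rose from 45.7, 42.7 and 42.2 to 84.7, 211 and 123.4 (log2 change 1.56, SE 0.41, limma adjusted p = 0.0446), while the control C24h B held 109. DND1, a cyclic nucleotide-gated channel, fell from 4259, 4221 and 3683 to 2654, 1513 and 2326 (log2 change -0.94, SE 0.26, limma adjusted p = 0.0495). APG10, a symbol shared by an autophagy gene and a gene named for a pale-green mutant, fell from 433, 491 and 398 to 283, 197 and 239 (log2 change -0.89, SE 0.16, limma adjusted p = 0.0134). The 6 calls dropped by 4, 6 and 5 when T12h A, B or C was left out and by 2, 6 and 4 when T24h A, B or C was (adjusted p = 0.0565 to 0.218 from limma). A harvest block in the limma fit took the adjusted p past the threshold for DND1 (0.0574), RPT2 (0.0657), UPL6 (0.066) and UBC22 (0.0605).

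Of the genes named here without a role, LOC110821627 had the largest rise, from 30.1, 14.9 and 31.1 to 363, 587 and 130.3 (log2 change 3.60, SE 0.52, limma adjusted p = 0.00529), and was above every control at T24h. LOC110813006 rose from 165, 101 and 71.1 to 373, 1101 and 3427 (log2 change 3.39, SE 0.92, limma adjusted p = 0.0485), and C24h B held 3460.1. LOC110825077 rose from 15.6, 20.9 and 3.33 to 42.3, 152 and 156 (log2 change 3.12, SE 0.65, limma adjusted p = 0.0193). In LOC110825077 T24h A was nearest to T12h. LOC110821458 fell from 7.80, 30.8 and 44.4 to 3.63, 0 and 1.15 (log2 change -3.44, SE 0.80, limma adjusted p = 0.0283) and LOC110817181 from 81.3, 66.6 and 94.4 to 12.1, 2.01 and 10.4 (log2 change -3.40, SE 0.85, limma adjusted p = 0.037). LOC110825848 had the smallest p of the falling genes and held 5486, 5258 and 5444 in T12h and 1991, 1479 and 1730.2 in T24h (log2 change -1.65, SE 0.18, limma adjusted p = 0.00166), with little spread in either group. ATIM fell from 52.4, 93.4 and 131 to 38.7, 8.05 and 5.77 (log2 change -2.70, SE 0.70, limma adjusted p = 0.0407) and the ATPase gene DAA1 from 81.3, 238 and 74.4 to 6.05, 21.1 and 63.4 (log2 change -2.40, SE 0.60, limma adjusted p = 0.0372). Of these 8 calls, 4, 5 and 6 were lost without T12h A, B and C in turn and 1, 6 and 5 without T24h A, B and C, at adjusted p of 0.0524 to 0.171 from limma. With the harvest as a block the calls of ATIM (0.0545) and LOC110813006 (0.0657) were lost, with the adjusted p from limma in parentheses.

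**Figure D4:**
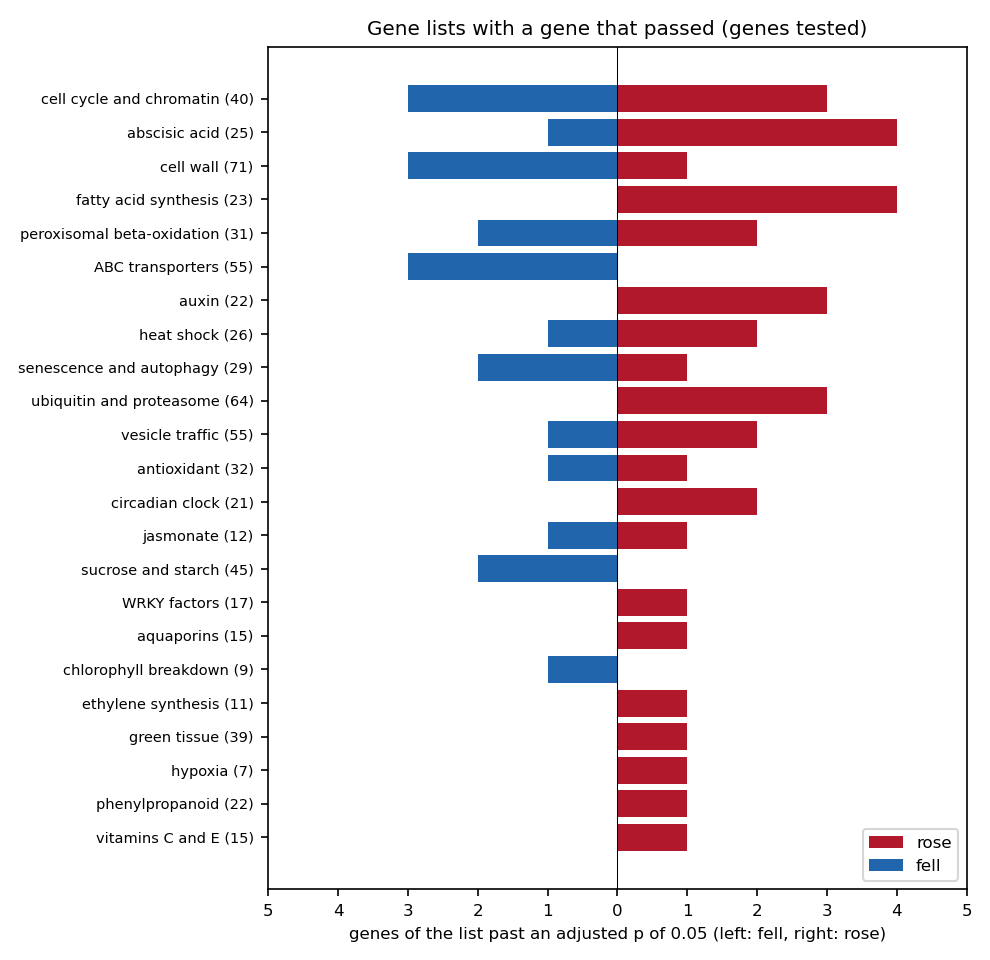
Number of genes that fell (left, blue) and rose (right, red) between T12h and T24h at an adjusted p of at most 0.05 in each gene list with at least 1 call, with the number of genes tested in parentheses. Fatty acid synthesis holds 4 that rose of 23, abscisic acid 4 that rose and 1 that fell of 25, and ABC transporters 3 that fell of 55, beside 5.51% of all genes tested.

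In the lists for tissues other than pulp 0 of 20 peel and cuticle, 6 seed and 5 xylem and vascular genes passed with limma. At an unadjusted p under 0.05 there were 3, 2 and 1 with limma, and edgeR called 0, 0 and 0 and DESeq2 0, 0 and 1. The closest genes of the peel and cuticle list were HTH at -2.30 and CER7 at -0.64 (adjusted p = 0.13 and 0.102 from limma), those of the seed list HSD5 at 0.85 and ATS1 at -0.86 (adjusted p = 0.134 and 0.124), and those of the xylem and vascular list XCP1 at 1.72 and REV at 1.29 (adjusted p = 0.223 and 0.0737).

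The levels of T12h and T24h were also set against the control fruit. Of the 490 genes that rose, 290 (59.2%) were below all 9 control libraries in all 3 T12h libraries, against 9.36% of all genes tested. At T24h 283 of these were no longer all below the controls, nor all above them, and 7 were above every control. A further 56 had not been below the controls at T12h and were above every control at T24h. Of the 352 genes that fell, 213 (60.5%) were above all 9 controls at T12h, against 9.29% of all genes tested. At T24h 205 of these were neither all above nor all below the controls, 5 were below every control and 3 were still above them. The T12h values also took part in the choice of these genes, so the shares are a description and no test. Without C24h B, T24h was above all 8 other controls in 139 of the 490 (28.4%, against 13.3% of all genes tested) and below them in 103 of the 352 (29.3%, against 13%).

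**Figure D5:**
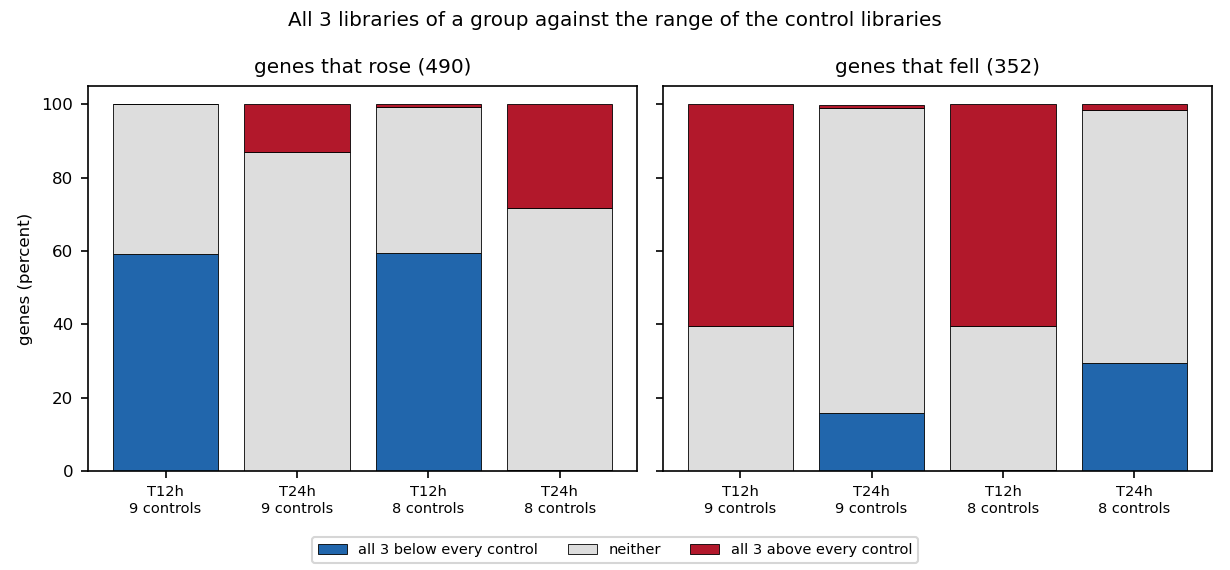
Percent of the genes that rose (left) and fell (right) whose 3 libraries of T12h or T24h lay all below every control library (blue), all above every control library (red) or neither (grey), with 9 controls and with 8 controls after leaving out C24h B. T12h was below the controls in 59.2% of the genes that rose and above them in 60.5% of those that fell.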

How the data were processed

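Pulp RNA of 15 fruit pools was sequenced. Per the labels and the study's methods, the authors cleaned reads with SeqyClean, aligned them with STAR to the Papaya1.0 genome, kept uniquely aligned reads, counted reads per gene (the counting tool is not given in the sources used here) and divided by DESeq2 size factors. The deposited signal is thus a normalized count with no length correction. Every value of a library was a whole multiple of 1 step within 0.001 reads (100% of values), which gave back the reads and the depth of each library (7999275 to 12542678).

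Values were tested as log2(value + 1) with limma 3.58.1 (trend) in R 4.3.3 over 5 groups, on 15270 of 20332 genes with a mean of at least 5. P-values were adjusted by Benjamini-Hochberg and called at 0.05, and a second count asked for a log2 fold change above 1.5. edgeR 4.0.16 called 811 genes and DESeq2 1.42.0 called 1722 on the recovered reads. Other alternatives were TMM and quantile scaling, another pseudocount (0.5 or 5), another filter (none, or a mean of 50), the 6 libraries alone, library weights, a harvest block, and each library or harvest left out. The harvest letters of the labels pair libraries. The deviations of same-harvest libraries correlated at 0.128, -0.0993 and -0.0948 across genes, against -0.134 to 0.241 in other pairs. Replicate libraries differed beyond sampling noise (chi-square per degree of freedom 24.2 to 62.8).

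Symbols came from a reference table of another papaya assembly, used for names only (17406 of 19817 IDs). Named genes were up to 15 rising and 15 falling genes with a symbol, past both thresholds without overlap, by size, the 4 largest each way whether or not they had a symbol, up to 6 called genes of each of 34 lists or, where none passed, the 2 with the smallest p, the genes of the study's real-time PCR (8 of 12 paired, PME1, PMEPCRA, PME31 and 5 without a symbol) and the smallest adjusted p each way. ETO1, EOL1, SAM-2, ETR1, ERS1, CTR1, EIN2, PRR5, PRR7, ADH1, PSY, the MCM genes and LOC110826274 fall outside that rule and were chosen after their values were seen. A gene that the rule names in the ribosome and translation list is not reported here. The study's cell wall families were paired for 69 of 156 genes. Comparison members and lists were chosen with earlier results of these data known. The limma test was checked on simulated counts that had no harvest effect, no outlying library and the same dispersion in all groups. That check therefore cannot speak to calls that depend on single libraries or harvests. Depth limits low genes by counting error only, and p-values measure the spread between pools.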

Additional observations from a re-analysis of the deposited data

How the results depend on the processing

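No alternative reversed any of the 86 named calls, which leaving out libraries could not do in genes whose groups do not overlap. The 842 and 264 genes called between T12h and T24h became 264 and 134 with the 6 libraries compared alone, 1535 and 427 with library quality weights (whose estimation stopped short of its tolerance), and 1722 and 462 with DESeq2 on the recovered reads, of which 217, 836 and 839 belonged to the 842. Leaving out 1 treated library gave 36 to 1140 and 24 to 472, and leaving out harvest A, B or C gave 327, 1 and 0 genes called and 238, 1 and 0 with the fold change as well. TMM scaling, quantile normalization, a pseudocount of 0.5 or 5, no filter, a mean of at least 50 and edgeR gave 580 to 840 and 177 to 275. With the harvest as a replicate block 669 and 229 passed, 616 of the 842 among them, and 20 of the 86 named calls were lost. Between C12h and C24h quality weights gave 1019 and 145 genes and DESeq2 3 and 3, against 0 otherwise. The difference of the changes gave 1097 and 445 with weights, 178 and 110 with DESeq2, and 0 to 9 and 0 to 8 with 1 library left out. Of the 86 named calls 53 were lost with the 6 libraries alone, 22 after quantile normalization, 16 without the filter, 10 with edgeR and 0 with DESeq2.

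The calls rest on 3 pools per group, and the cause of the differences between settings was not tested. C24h B, with 7999275 reads, was the shallowest library. At a mean near 5 normalized counts a value is a few reads.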

Other observations

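Of the genes that rose, 63 were above all 9 controls in every T24h library and not so at T12h, and of those that fell 56 were below all 9 controls in every T24h library and not so at T12h. These are 12.9% of the genes that rose and 15.9% of those that fell, where 3.49% and 3.52% of all genes tested were above and below the controls at T24h. They were chosen after their values were seen and are given as a description. With a symbol and not yet described, the genes that reached a new high were NPC2, a phospholipase C, from 51.3, 25.8 and 33.3 normalized counts in T12h A, B and C to 121, 151 and 136 in T24h, BCA5, a carbonic anhydrase, from 778, 288 and 515 to 1908, 1138 and 1000.03, and NAPRT2, of nicotinate salvage, from 824, 633 and 713 to 1354, 1810.0 and 1162. TAF11, a subunit of the general transcription machinery, went from 305, 327 and 333 to 471, 578 and 466, and ZAP1 and CCP2 changed by 0.64 and 0.73 on the log2 scale. The log2 fold change of NPC2 was 1.91 in treated fruit and 1.74 in control fruit, where it did not pass (adjusted p = 0.86 from limma).

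Among genes that reached a new low, LON1, a mitochondrial protease, fell from 749.8, 523 and 612 to 265, 275 and 264, and PRORP1, a protein-only RNase P, from 441, 446 and 425 to 267, 227 and 283. PFD1, a prefoldin subunit, fell from 345, 399 and 331 to 261, 222 and 232, and ENGASE85A, an endoglycosidase, from 49.0, 52.7 and 60.0 to 31.5, 26.2 and 31.1. The glycosyltransferase UGT88A1 fell from 3489, 4875 and 3518 to 2288, 1861 and 2874 and the potassium channel KCO1 from 304, 477 and 252 to 119, 128 and 157. ATSLY1, of vesicle fusion, EMB2804 and EDA30 changed by -1.39, -1.31 and -0.83 on the log2 scale. In all of these the T24h values did not overlap with T12h, as in 837 of the 842 genes called.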
